A study of Homo sapiens with 14 samples.

Results

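The 4 inhibitors of DNA binding (ID1, ID2, ID3 and ID4), the mesoderm factor MESP1 and the E proteins TCF3 and TCF12 were followed in 3 prostate cancer cell lines after inhibition of the Mediator kinases CDK8 and CDK19. These 7 genes were matched by symbol in the deposited count table of 62703 genes. They were chosen by their response to the inhibitor in these same libraries, so their values under treatment are given as a description, without a p-value. The study compared cells kept for 3 days in 1.5 µM SEL120-34A, a small molecule inhibitor of CDK8 and CDK19, with cells given its solvent, dimethylsulfoxide (DMSO). LNCaP is an androgen-dependent line sensitive to enzalutamide, 22Rv1 responds to androgen but is resistant to enzalutamide, and PC3 does not depend on androgen. LNCaP and 22Rv1 had 3 libraries in each arm and PC3 had 1, which made 14 libraries in all. Each line stands for 1 established culture, and whether replicates came from separate cultures is not given in the labels, so the spread between them may be technical. The study's methods state in general that 3 or more biological replicates were used where nothing else is said.

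All 7 genes code for proteins of the basic helix-loop-helix (bHLH) class or for their inhibitors. bHLH factors pair through the helix-loop-helix and contact DNA through the basic region, usually at the E box CANNTG. E proteins such as TCF3 (E2A) and TCF12 (HEB) are expressed in many tissues and pair with each other or with tissue-restricted factors such as MESP1, which acts early in the formation of mesoderm and of the heart. ID proteins have the helix-loop-helix but no basic region, so that an E protein held by an ID protein cannot bind DNA. ID genes are well-known targets of bone morphogenetic protein (BMP) signalling through SMAD factors. In epithelial tumours, ID1 and ID3 are associated with proliferation and ID4 with differentiation in the prostate.

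In the GRCh38 annotation, ID1 lay on chr20:31605283-31606515 (+ strand), ID2 on chr2:8678845-8684461 (+), ID3 on chr1:23557926-23559501 (−) and ID4 on chr6:19837370-19842197 (+). MESP1 lay on chr15:89749875-89751249 (−), TCF3 on chr19:1609291-1652615 (−) and TCF12 on chr15:56918623-57299281 (+). Antisense genes overlapped ID2 and ID4. The one at ID2 had 4 counts and the one at ID4 had 13 over all 14 libraries. The 2 antisense genes that overlapped TCF12 had 0 counts. Genes within 50 kb with a mean of at least 10 counts were found near TCF3 alone (MEX3D, MBD3 and UQCR11). None of these 3 passed the test for a response in either line, by edgeR's quasi-likelihood test with adjusted p-values from 0.578 to 0.736 in LNCaP and from 0.0624 to 0.905 in 22Rv1.

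The promoters of the 4 ID genes are shown because the results below turn on this family. Its members had unlike levels in LNCaP and 22Rv1, and unlike treatment estimates in 22Rv1. Each run is the 250 bases before the RefSeq start of the gene in GRCh38.p14, read 5′ to 3′ on the strand of the gene, and capitals mark E boxes (CANNTG).
ID1, chr20:31605039-31605288, + strand: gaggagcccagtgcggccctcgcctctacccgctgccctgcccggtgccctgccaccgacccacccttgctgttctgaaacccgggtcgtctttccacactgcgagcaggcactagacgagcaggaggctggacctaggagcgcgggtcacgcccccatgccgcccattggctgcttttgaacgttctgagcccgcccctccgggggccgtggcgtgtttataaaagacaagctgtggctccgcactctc
ID2, chr2:8681806-8682055, + strand: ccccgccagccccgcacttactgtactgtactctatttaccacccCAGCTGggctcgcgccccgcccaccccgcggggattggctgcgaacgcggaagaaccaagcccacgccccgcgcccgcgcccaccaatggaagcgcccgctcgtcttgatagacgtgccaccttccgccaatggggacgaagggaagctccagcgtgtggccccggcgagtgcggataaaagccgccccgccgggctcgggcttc
ID3, chr1:23559502-23559751, - strand: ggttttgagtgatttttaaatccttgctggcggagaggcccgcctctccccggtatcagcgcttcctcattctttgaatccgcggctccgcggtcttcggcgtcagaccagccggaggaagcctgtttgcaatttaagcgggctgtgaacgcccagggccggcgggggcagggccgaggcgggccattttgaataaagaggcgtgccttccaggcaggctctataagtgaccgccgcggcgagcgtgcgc
ID4, chr6:19837120-19837369, + strand: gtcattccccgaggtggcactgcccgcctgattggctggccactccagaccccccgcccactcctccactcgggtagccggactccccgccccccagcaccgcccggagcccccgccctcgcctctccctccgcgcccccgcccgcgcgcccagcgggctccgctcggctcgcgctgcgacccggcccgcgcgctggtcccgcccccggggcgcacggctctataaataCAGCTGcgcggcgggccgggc
ID2 and ID4 each had 1 E box, and both of these read CAGCTG, a sequence that is its own reverse complement. It began at position −205 in ID2 and at −21 in ID4, counted from the RefSeq start. That start can differ from the annotated start given above. The ID2 window lies within the annotated span of ID2, and the ID1 window runs slightly past the annotated start of ID1. No CANNTG was found in these windows of ID1, ID3 or TCF3. Of the 35116 windows of this length in the table, 61.8% held at least 1 E box, so a match is common. TATAAA, searched on both strands like all motifs here, was present in 10.7% of windows and in those of ID1 and ID4; in ID1 there were 2 matches, which overlap on opposite strands. CCAAT was present in 32.0% of windows, with 3 matches in ID2 and 1 each in ID1 and ID4. GGCGCC, a GC-rich element to which SMAD factors are known to bind, was present in 16.4% of windows and had no match in these 5. The GC content of the 5 windows ranged from 62.0% in ID3 to 79.6% in TCF3, against a median of 58.0% over all windows. TCF12 had 5 alternative windows in the table and was not searched.

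Total counts per library ranged from 246063 to 909176, and 3 counts, taken as the floor, amounted to between 3.27 and 12.9 CPM (counts scaled to a common library size with TMM factors). The treated 22Rv1 libraries were all shallower than their controls. The 9 prostate epithelial genes gave a summed level of 4090 to 4610 CPM in LNCaP DMSO and 3050 to 3430 CPM in LNCaP SEL120-34A. In LNCaP the means of KLK3 (1220 and 331 CPM), KLK2 (516 and 190 CPM), KRT8, KRT18 and EPCAM were lower after treatment, whereas those of HOXB13 (288 and 339 CPM), FOLH1 (711 and 965 CPM), TMPRSS2 (97.3 and 134 CPM) and STEAP2 (190 and 237 CPM) were higher. In 22Rv1 that sum was 1260 to 1450 CPM in DMSO and 1330 to 1620 CPM in SEL120-34A. In PC3 it was 1740 CPM in DMSO and 2020 CPM in SEL120-34A. The 6 genes typical of PC3 and mesenchymal cells summed to at most 136 CPM in LNCaP and 22Rv1 and to at least 4160 CPM in PC3. The 4 leukocyte genes summed to at most 1.87 CPM and the 3 endothelial genes to at most 7.01 CPM in any library. Of 5 fibroblast genes, 3 (COL1A2, DCN and LUM) were at 0 in both LNCaP arms. The sum was 12.7 to 18.3 CPM in LNCaP DMSO and 23.4 to 35.9 CPM in LNCaP SEL120-34A. Between these arms the mean of COL3A1 went from 0.939 to 19.1 CPM and that of COL1A1 from 15.5 to 10.6 CPM. The fibroblast sum in 22Rv1 was 0 to 4.77 CPM in DMSO and 2.85 to 8.58 CPM in SEL120-34A. It was highest in PC3, at 94.7 CPM in DMSO and 85.9 CPM in SEL120-34A. The part of these marker levels in the results was not tested. In such bulk samples, fewer cells with a transcript and less transcript per cell cannot be told apart.

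The untreated lines differed in 4 of the 6 members tested, by edgeR's quasi-likelihood test, while 49.0% of all 7086 genes tested passed in this comparison, so a difference between the lines was common. ID1, ID3 and ID4 were lower in LNCaP DMSO than in 22Rv1 DMSO and MESP1 was higher. TCF12 did not pass the low-count filter. In each of the 4 genes that passed, no LNCaP DMSO library overlapped with a 22Rv1 DMSO library, which held for 56.4% of all genes tested.

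ID1 was measured at 131, 65.5 and 46.1 CPM in the LNCaP DMSO libraries and at 518, 372 and 435 CPM in 22Rv1 DMSO. The log2 difference was −2.41 ± 0.202 (SE; LNCaP minus 22Rv1, edgeR adjusted p = 3.93e-13). ID3 was measured at 128, 81.2 and 46.1 CPM in LNCaP DMSO and at 228, 213 and 202 CPM in 22Rv1 DMSO, with a log2 difference of −1.31 ± 0.212 (edgeR adjusted p = 2.13e-06). For both genes the replicates of LNCaP DMSO were spread over more than a doubling, with replicate 1 highest and replicate 3 lowest, whereas those of 22Rv1 DMSO lay close together.

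ID4, which differs from the other ID proteins in that it is often reported as a brake on ID1 to ID3 activity, had the largest estimate between the untreated lines among the members tested. It had 8, 0 and 5 counts in the LNCaP DMSO libraries and 56, 77 and 84 counts in 22Rv1 DMSO. These correspond to 6.09 ± 5.69 CPM (SD, n = 3) and 118 ± 23.1 CPM (SD, n = 3). The log2 difference was −3.98 ± 0.358 (edgeR adjusted p = 2.8e-12). The pooled counts gave a ratio of 16.0 in 22Rv1 DMSO over LNCaP DMSO, with an exact 95% interval from 9.18 to 30.6 that covers counting error only. The LNCaP library with no ID4 counts could have held up to 7.85 CPM at the floor of 3 counts.

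MESP1 was the 1 member that passed as higher in LNCaP. It was measured at 106, 75.9 and 71.3 CPM in LNCaP DMSO and at 3.93, 26.2 and 14.3 CPM in 22Rv1 DMSO. The lowest of these values rested on 2 counts. The log2 difference was 2.50 ± 0.309 (edgeR adjusted p = 8.68e-09), and it was 2.13 without 22Rv1 DMSO replicate 1 and 3.01 without 22Rv1 DMSO replicate 2.

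ID2 and TCF3 did not pass the test between the untreated lines. ID2 was at 71.8 ± 21.4 CPM (SD, n = 3) in LNCaP DMSO and 62.9 ± 16.2 CPM (SD, n = 3) in 22Rv1 DMSO. Its log2 difference was 0.27, with a 95% interval from −0.185 to 0.722 (edgeR adjusted p = 0.335). TCF3 was at 102 ± 13.6 CPM (SD, n = 3) and 98.4 ± 7.55 CPM (SD, n = 3). Its log2 difference was 0.05, with a 95% interval from −0.312 to 0.417 (edgeR adjusted p = 0.828). The interval for TCF3 does not reach the estimates for ID1, ID3, ID4 or MESP1.

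**Figure D1:**
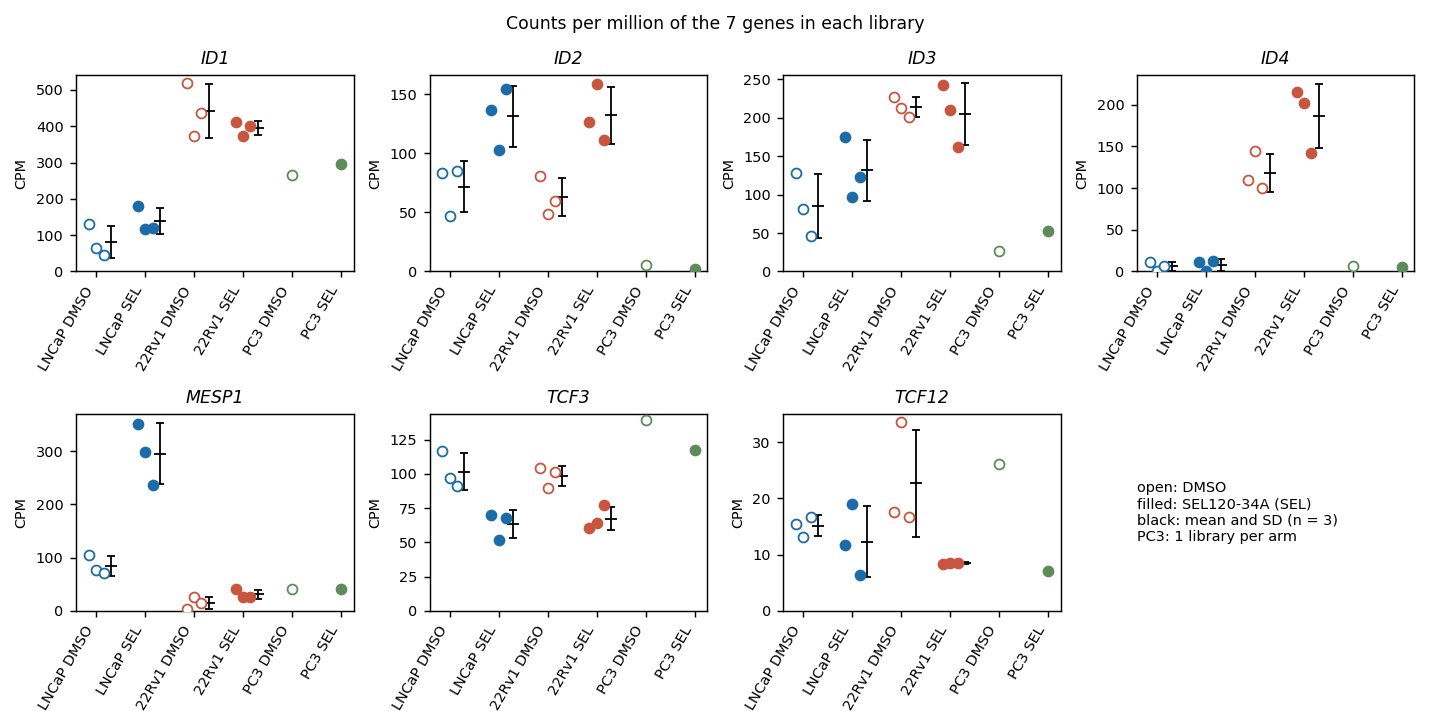
Level of each gene in CPM (y axis, linear and starting at 0) in the 14 libraries, by cell line and arm (x axis); open points are DMSO, filled points SEL120-34A, and black marks the mean and SD of 3 libraries. ID4 was at 100 CPM or more in every 22Rv1 library and at 12.7 CPM or less in every other library, and MESP1 was highest in the 3 LNCaP SEL120-34A libraries.

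The responses of the ID genes to SEL120-34A were not tested against each other. In LNCaP the intervals of their log2 fold changes all overlapped (0.73 for ID1, 0.84 for ID2, 0.61 for ID3, 0.22 for ID4). In 22Rv1 the interval of ID2 (0.604 to 1.53) lay above those of ID1 (−0.506 to 0.217) and ID3 (−0.461 to 0.372). That of ID4 in 22Rv1 (0.226 to 1.13) overlapped with those of ID2 and ID3. ID2 was higher in every treated library of LNCaP and 22Rv1 than in any control of the same line. ID1 and ID3 had higher means in treated LNCaP but not in treated 22Rv1, and ID4 had a higher mean in treated 22Rv1. MESP1 had higher means in both lines, and TCF3 was lower in every treated library of both lines. Past the threshold of the fit were 2 of the 6 members tested in LNCaP (ID2 and MESP1, both higher) and 1 in 22Rv1 (ID2, higher). Of all genes tested, 2.77% passed in LNCaP (1.99% higher) and 5.70% in 22Rv1 (4.15% higher). Without overlap between the arms, 2 members were higher and 1 lower in LNCaP, against 8.76% and 10.7% of all genes. In 22Rv1 1 was higher and 1 lower, against 12.4% and 10.5%. The members were chosen with these responses known, so nothing is read from these counts.

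ID2 is an ID protein also known to bind the retinoblastoma protein. In LNCaP it was measured at 83.1, 47.1 and 85.3 CPM in DMSO and at 136, 103 and 154 CPM in SEL120-34A. In 22Rv1 it was measured at 80.5, 48.7 and 59.6 CPM in DMSO and at 127, 159 and 111 CPM in SEL120-34A. Treated and control libraries thus did not overlap in either line, and the treated means of the lines were alike (131 ± 26.0 and 132 ± 24.3 CPM; SD, n = 3 each). The log2 fold change was 0.84 ± 0.217 (SE) in LNCaP and 1.07 ± 0.229 in 22Rv1, that is 1.79-fold and 2.10-fold. Over all genes tested, treated libraries were all higher than all controls in both lines for 2.03%, and 0.437% passed the threshold upward in both lines. The difference between the responses (LNCaP minus 22Rv1) was −0.22, with a 95% interval from −0.861 to 0.411.

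ID1 and ID3 were above the LNCaP DMSO mean in every treated LNCaP library, but the arms overlapped. ID1 was at 179, 117 and 120 CPM in LNCaP SEL120-34A, and the highest control, replicate 1, was at 131 CPM. The log2 fold change of ID1 was 0.73 ± 0.245 (95% interval 0.238 to 1.23). Leaving out LNCaP DMSO replicate 1 gave 1.36 and leaving out replicate 3 gave 0.40, so the size of the change rested on which control was kept. ID3 was at 175, 97.6 and 122 CPM in LNCaP SEL120-34A, with a highest control of 128 CPM. Its log2 fold change was 0.61 ± 0.245 (95% interval 0.115 to 1.10). Leaving out LNCaP DMSO replicate 1 gave 1.13 and leaving out replicate 3 gave 0.26, the same libraries that moved ID1.

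In 22Rv1, ID1 was at 411, 373 and 399 CPM after SEL120-34A, within the range of its controls (372 to 518 CPM). Its log2 fold change was −0.14 ± 0.179 (95% interval −0.506 to 0.217). ID3 was at 243, 210 and 163 CPM after SEL120-34A, on both sides of its controls (202 to 228 CPM), with a log2 fold change of −0.04 ± 0.206 (95% interval −0.461 to 0.372). The difference between the lines' responses was 0.88 ± 0.303 for ID1 (95% interval 0.265 to 1.49) and 0.65 ± 0.319 for ID3 (95% interval 0.00882 to 1.30). In that comparison 0.734% of all genes tested passed the threshold, which is given as background, and no p-value is given for the members. The 2 differences share the LNCaP DMSO libraries and moved together when those were left out, to 1.52 and 1.20 without replicate 1 and to 0.56 and 0.33 without replicate 3.

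ID4 had 78, 47 and 50 counts in 22Rv1 SEL120-34A, which correspond to 215, 202 and 143 CPM. The controls were at 110, 144 and 100 CPM, so 2 treated libraries lay above all controls and replicate 3 lay just below the highest. The log2 fold change was 0.68 ± 0.224 (95% interval 0.226 to 1.13). In LNCaP, ID4 had 3, 0 and 6 counts after SEL120-34A against 8, 0 and 5 in DMSO. Its log2 fold change of 0.22 had a 95% interval from −1.18 to 1.61 and ran from −0.51 to 0.85 as single libraries were left out, so no response of ID4 in LNCaP could be read at this depth.

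MESP1 gave the largest estimate of the 6 members tested. In LNCaP its counts were 75, 29 and 51 in DMSO and 90, 110 and 112 in SEL120-34A, although the treated libraries were on average shallower. The levels were 106, 75.9 and 71.3 CPM against 351, 298 and 237 CPM, so that the lowest treated library was above 2-fold over the highest control. The log2 fold change was 1.80 ± 0.205 (95% interval 1.38 to 2.21), or 3.47-fold, and it stayed between 1.66 and 2.02 with any 1 library left out. In 22Rv1, MESP1 was at 41.3, 25.8 and 25.7 CPM after SEL120-34A, against 3.93, 26.2 and 14.3 CPM in DMSO. The log2 fold change was 1.09 ± 0.429 (95% interval 0.221 to 1.95). It was 0.70 without 22Rv1 DMSO replicate 1, the library with 2 counts, and 1.59 without 22Rv1 DMSO replicate 2. The treated 22Rv1 libraries remained below every LNCaP DMSO library. The difference between the responses was 0.71, with a 95% interval from −0.277 to 1.69.

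The E protein TCF3 was lower after treatment in both lines. In LNCaP it was at 117, 96.9 and 90.9 CPM in DMSO and at 70.2, 51.5 and 67.6 CPM in SEL120-34A. In 22Rv1 it was at 104, 89.8 and 101 CPM in DMSO and at 60.6, 64.4 and 77.0 CPM in SEL120-34A. Every treated library lay below every control of its line, and across the lines the 6 treated libraries lay below the 6 controls. The log2 fold change was −0.67 ± 0.215 in LNCaP (95% interval −1.10 to −0.235) and −0.53 ± 0.219 in 22Rv1 (95% interval −0.974 to −0.0886). Neither passed the threshold over all genes, and 1.91% of all genes tested were likewise lower without overlap in both lines. The estimate kept its sign with any 1 library left out, from −0.75 to −0.54 in LNCaP and from −0.64 to −0.44 in 22Rv1.

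TCF12, the second E protein, was counted too rarely to be tested. It had 11, 5 and 12 counts in LNCaP DMSO and 3, 7 and 3 in LNCaP SEL120-34A, a ratio of pooled counts of 0.763 with a 95% counting interval from 0.363 to 1.52. In 22Rv1 it had 9, 18 and 14 counts in DMSO and 3, 2 and 3 in SEL120-34A. The ratio of pooled counts there was 0.388, with a 95% counting interval from 0.157 to 0.838. The treated 22Rv1 levels were 8.27, 8.58 and 8.56 CPM, all at or under the floor of 3 counts. TCF4, the third E protein, had 3, 3 and 2 counts in 22Rv1 DMSO and 0 in the 3 treated libraries, and at most 1 count in any LNCaP library, so its levels cannot be compared at this depth.

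**Figure D2:**
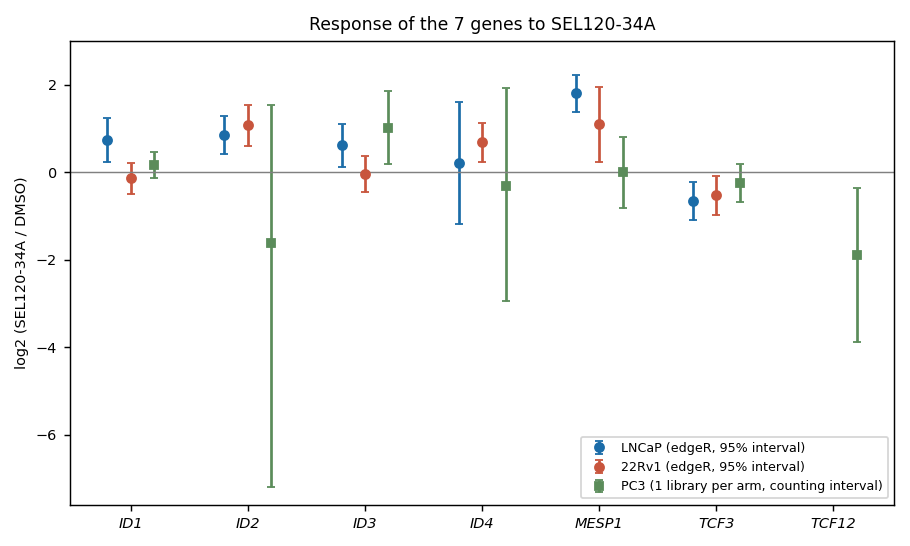
Log2 ratio of SEL120-34A to DMSO (y axis) for each gene (x axis). Circles are edgeR estimates in LNCaP and 22Rv1 with their 95% intervals, and squares are the ratio of the 2 PC3 libraries with an interval for counting error; TCF12 was not tested in LNCaP and 22Rv1. MESP1 in LNCaP stood at 1.80, and TCF3 was below 0 in all 3 lines, with an interval in PC3 that includes 0.

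In PC3 there was 1 library per arm, so no test was possible and the intervals cover counting error alone. ID1 was at 266 CPM in DMSO and 296 CPM in SEL120-34A, a log2 ratio of 0.16 (95% counting interval −0.134 to 0.447). ID3 was at 26.1 and 52.6 CPM, on 24 and 30 counts, a log2 ratio of 1.01 (0.186 to 1.85). A log2 ratio above 0.5 was found for 13.5% of the 7089 genes with at least 10 counts in both PC3 libraries, and one below −0.5 for 8.52%. Thus ID3 but not ID1 had a counting interval above 0 in PC3.

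ID2 had 5 counts in PC3 DMSO and 1 in PC3 SEL120-34A, far under its level in LNCaP and 22Rv1 and too few for a ratio to be read. ID4 had 6 and 3 counts. MESP1 was at 40.3 CPM in both libraries (37 and 23 counts), with a log2 ratio of 0.00 (−0.816 to 0.791). The LNCaP estimate of 1.80 lies above that interval, which covers counting error only. TCF3 was at 139 CPM in DMSO and 117 CPM in SEL120-34A, a log2 ratio of −0.25 (−0.695 to 0.191). TCF12 had 24 and 4 counts, a log2 ratio of −1.90 (−3.88 to −0.356), so that the ratio was below 1 in each line, with an interval in LNCaP that includes 1.

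By mean level over the 6 groups, the order of ID1 was 22Rv1 DMSO, 22Rv1 SEL120-34A, PC3 SEL120-34A, PC3 DMSO, LNCaP SEL120-34A and LNCaP DMSO. The libraries of the 22Rv1 arms overlapped, as did those of the LNCaP arms. ID3 ran from 22Rv1 DMSO and 22Rv1 SEL120-34A through LNCaP SEL120-34A and LNCaP DMSO to PC3, and each neighbour overlapped with the next down to PC3 SEL120-34A. For ID2 the treated 22Rv1 and LNCaP libraries came first and overlapped with each other, then their controls, then PC3. ID4 came in 22Rv1 SEL120-34A, then 22Rv1 DMSO, which overlapped, and all other groups lay at 8.12 CPM or less. MESP1 came first in LNCaP SEL120-34A (295 ± 57.2 CPM; SD, n = 3), then in LNCaP DMSO (84.3 ± 18.6 CPM; SD, n = 3), PC3 and 22Rv1. TCF3 was highest in PC3, and the LNCaP and 22Rv1 controls came before the treated libraries of both lines. For TCF12, neighbouring groups overlapped from PC3 DMSO down to 22Rv1 SEL120-34A, and PC3 SEL120-34A came last.

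ID1 and ID3 had the most similar pattern among the members. Over the 12 LNCaP and 22Rv1 libraries, with log2 CPM centred within each line, Pearson's r between them was 0.919. Each was the most similar of 7085 genes to the other. With values centred within each of the 4 groups, so that neither line nor treatment enters, r was 0.880, and ID3 ranked 8 for ID1 and ID1 ranked 7 for ID3. The relation lay in LNCaP: r was 0.970 over its 6 libraries (Spearman's rho 1.00, and r 0.942 without the 2 libraries farthest from the median of ID1). In 22Rv1 r was 0.252 (rho 0.200, and r 0.0959 without the 2 farthest libraries). In LNCaP the counts were close in each library, with 93, 25 and 33 for ID1 and 91, 31 and 33 for ID3 in DMSO. These points share library depth and RNA sample, and r is given as a description.

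**Figure D3:**
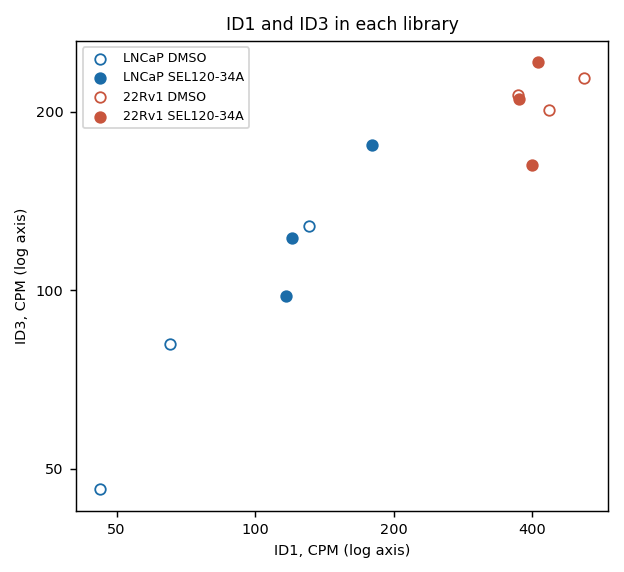
ID1 (x axis) against ID3 (y axis) in CPM, both on log axes, in each LNCaP and 22Rv1 library; open points are DMSO and filled points SEL120-34A. The 6 LNCaP libraries fall along a line in the same order for both genes, from replicate 3 of DMSO at 46.1 CPM for each to replicate 1 of SEL120-34A at 179 and 175 CPM, while the 22Rv1 libraries form a cluster at the upper right.

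Between other members the same measure gave −0.80 for MESP1 and TCF3, −0.69 for ID2 and TCF3, 0.61 for ID2 and ID4 and 0.59 for ID2 and MESP1. Treatment enters these values, so they are not separate from the responses above. With values centred within each group, r was −0.195 for MESP1 and TCF3 and 0.687 for ID2 and ID4. The sign changed for ID2 and TCF3 (0.337) and for ID2 and MESP1 (−0.434). After ID3, the genes most like ID1 were IGFBP3 (r 0.885) and LAMA5-AS1 (0.884). ID2 was most like GPC5-AS1 (0.940), PSMG3 (0.936) and PDCD4 (0.934). For ID3 they were, after ID1, GLMP (0.900) and LAMA5-AS1 (0.878). ID4 was most like FAM219B (0.940), SLC7A5 (0.922) and TNFRSF1A (0.851). MESP1 was most like KCNN2 (0.936), ABCC4 (0.910) and BLOC1S6 (0.904), and among the genes most like TCF3 were RRP7A (0.937) and SGO2 (0.920). Without centring, 0 of these 3 genes stayed among the 3 most similar for ID1, 1 for ID2, ID4 and TCF3, and 2 for ID3 and MESP1.

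Around the members, 191 genes of 7 related lists were examined, of which 48 passed the low-count filter. The lists too were chosen with earlier results of these data known, so their tests are not independent of that choice. Few of the 48 passed under treatment. In LNCaP 3 of the 48 passed the test (6.25%, against 2.77% of all genes tested), and 6 had an unadjusted p under 0.05. In 22Rv1 2 passed (4.17%, against 5.70%), and 5 had an unadjusted p under 0.05. The median log2 fold change of the 48 was 0.11 in LNCaP and 0.00 in 22Rv1, against 0.00 in both for all genes tested. Without the genes whose counts were at or under the floor in all libraries of an arm (6 in LNCaP and 2 in 22Rv1), the medians were 0.11 and 0.00.

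Among the BMP and TGF-beta ligands and antagonists, upstream of the ID genes, 6 of 40 were tested and 0 passed in either line by edgeR, with an unadjusted p under 0.05 for 1 in LNCaP and 0 in 22Rv1. DESeq2 gave an adjusted p for only 2 of these genes in LNCaP and 1 in 22Rv1, and called 0 in either line. Limma-trend, which tested 16 of the list, called 0 in LNCaP and 1 in 22Rv1. Of the receptors and SMAD factors, 15 of 38 were tested. In 22Rv1 0 passed by edgeR, with an unadjusted p under 0.05 for 1, and 0 by limma-trend. DESeq2 gave an adjusted p for only 4 of them in 22Rv1 and called 0. In LNCaP 1 passed by edgeR, and 0 by DESeq2, which gave an adjusted p for 7 of them, or by limma-trend. The gene called in LNCaP was SMAD7, the inhibitory SMAD induced by the pathway itself. It had fewer counts than the naming rule asked for and is named because it was the one gene called. It had 2 counts in each LNCaP DMSO library and 5, 6 and 6 in LNCaP SEL120-34A. The ratio of pooled counts was 4.66, with a 95% counting interval from 1.75 to 14.4 (edgeR adjusted p = 0.0374). The call was lost in 10 of 19 alternatives. In 22Rv1 SMAD7 had 14, 19 and 21 counts in DMSO and 10, 9 and 8 after treatment, a log2 fold change of 0.00 ± 0.362 (edgeR adjusted p = 1). The difference between its responses did not pass the test (edgeR adjusted p = 0.181).

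Of 48 tissue-restricted bHLH factors, together with TCF4, 23 had at least 1 count and 2 were tested. Of these, 0 passed in either line by edgeR, and 0 had an unadjusted p under 0.05. Limma-trend tested 5 and called 0. TWIST1, a bHLH factor of mesenchymal cells, had a log2 fold change of 0.71 ± 0.361 in LNCaP (edgeR adjusted p = 0.388) and 1.18 ± 0.626 in 22Rv1 (edgeR adjusted p = 0.306). TCFL5 had 0.39 ± 0.358 in LNCaP (edgeR adjusted p = 0.712) and 0.07 ± 0.544 in 22Rv1 (edgeR adjusted p = 0.966). Most potential tissue-restricted partners of the E proteins were thus not detectable or too rare to compare at this depth. MESP2, the neighbour and close relative of MESP1, had 5, 5 and 3 counts in LNCaP DMSO and 2, 3 and 6 in LNCaP SEL120-34A.

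Of 30 genes of the early mesoderm and cardiac programme in which MESP1 acts, 22 had at least 1 count, 3 were tested (NKX2-5, CDH2 and DKK1) and 0 passed in either line by edgeR, with an unadjusted p under 0.05 for 0 of them. Limma-trend tested 6 and called 0, and DESeq2 gave no adjusted p for this list under treatment. In LNCaP, NKX2-5 had 1 count in all DMSO libraries together and 1 in all SEL120-34A libraries together. TBXT (brachyury), which marks the start of mesoderm, had 0 counts in every library. Beside the higher MESP1 level in treated LNCaP, no tested gene of that list passed, and 27 of the 30 could not be tested.

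Among the HES and HEY repressors, bHLH factors that act downstream of Notch and partly without E proteins, 3 of 13 were tested. HES6, which is known to counteract HES1, rose in 22Rv1 from 29.5, 20.6 and 28.6 CPM to 93.7, 98.7 and 48.5 CPM, a log2 fold change of 1.57 ± 0.315 (edgeR adjusted p = 0.00103). In LNCaP it was at 35.2, 55.0 and 79.7 CPM in DMSO and at 35.1, 43.4 and 52.8 CPM in SEL120-34A (log2 fold change −0.30 ± 0.303, edgeR adjusted p = 0.742). HES6 was the 1 listed gene whose responses differed between the lines, by −1.88 ± 0.435 (LNCaP minus 22Rv1; edgeR adjusted p = 0.0265). HES1 and HES4 did not pass in either line.

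Of 18 genes for binding partners and turnover of ID proteins, 14 were tested and 1 passed, the same in both lines. CDC20, an activator of the anaphase-promoting complex that can mark ID proteins for degradation, fell by 0.96 ± 0.202 on the log2 scale in LNCaP (edgeR adjusted p = 0.00299) and by 0.74 ± 0.183 in 22Rv1 (edgeR adjusted p = 0.00966). CDC20 is also known to vary with the cell cycle. In LNCaP it went from 220, 228 and 246 CPM to 74.1, 73.2 and 182 CPM, and treated replicate 3 stood apart. Of 7 CDK inhibitors, classical targets of E proteins that ID proteins restrain, 5 were tested. CDKN1A (p21) rose in LNCaP from 155, 113 and 88.1 CPM to 199, 249 and 184 CPM, a log2 fold change of 0.85 ± 0.194 (edgeR adjusted p = 0.00801). In 22Rv1 its log2 fold change was 0.68 ± 0.340 (edgeR adjusted p = 0.265), and the difference between the responses was 0.17 ± 0.400 (edgeR adjusted p = 0.917).

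Between the untreated lines, 26 of the 48 listed genes passed (11 higher and 15 lower in LNCaP), 54.2% against 49.0% of all genes tested. BMP2, a ligand that induces ID genes, had 2 counts over the 3 LNCaP DMSO libraries and 180 over the 3 of 22Rv1, a ratio of 86.2 in 22Rv1 over LNCaP with a 95% counting interval from 23.6 to 719 (edgeR adjusted p = 1.59e-14). SMAD4, the SMAD shared by all branches of the pathway, was lower in LNCaP by a log2 difference of −1.86 ± 0.382 (edgeR adjusted p = 9.88e-05), and SMAD2 by −0.65 ± 0.221 (edgeR adjusted p = 0.0135). The repressor TGIF2 was lower by −1.25 ± 0.344 (edgeR adjusted p = 0.00266) and its relative TGIF1 higher by 1.16 ± 0.319 (edgeR adjusted p = 0.00269). GDF11 was lower in LNCaP by −0.82 ± 0.297 (edgeR adjusted p = 0.0208) and LTBP4, which binds latent TGF-beta, was higher by 1.06 ± 0.324 (edgeR adjusted p = 0.00662). Of the ligands and antagonists tested, 2 passed as higher and 2 as lower in LNCaP. Among the receptors and SMAD factors 3 passed as higher and 5 as lower. FSTL1 (2.04 ± 0.434), BMPR2 (1.935 ± 0.479) and RGMB (1.006 ± 0.39), which averaged fewer than 10 counts, passed as higher in LNCaP. SMAD7 also averaged fewer than 10 counts and was lower, with 6 counts over LNCaP DMSO and 54 over 22Rv1 DMSO.

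TWIST1 was higher in LNCaP than in 22Rv1 by 2.11 ± 0.476 (edgeR adjusted p = 0.00033). HES6 was higher by 1.10 ± 0.298 (edgeR adjusted p = 0.00233) and HES4 by 0.57 ± 0.216 (edgeR adjusted p = 0.0275). Of the CDK inhibitors, CDKN1A was higher in LNCaP by 2.16 ± 0.248 (edgeR adjusted p = 1.72e-09), whereas CDKN2D was lower by −1.32 ± 0.261 (edgeR adjusted p = 5.53e-05) and CDKN1B by −1.10 ± 0.269 (edgeR adjusted p = 0.000821). VHL was lower by −0.98 ± 0.326 (edgeR adjusted p = 0.0118) and CDC20 by −0.56 ± 0.165 (edgeR adjusted p = 0.00463). NKX2-5, a cardiac homeobox factor, had 1 count over the LNCaP DMSO libraries and 96 over those of 22Rv1 (edgeR adjusted p = 6.72e-10).

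**Figure D4:**
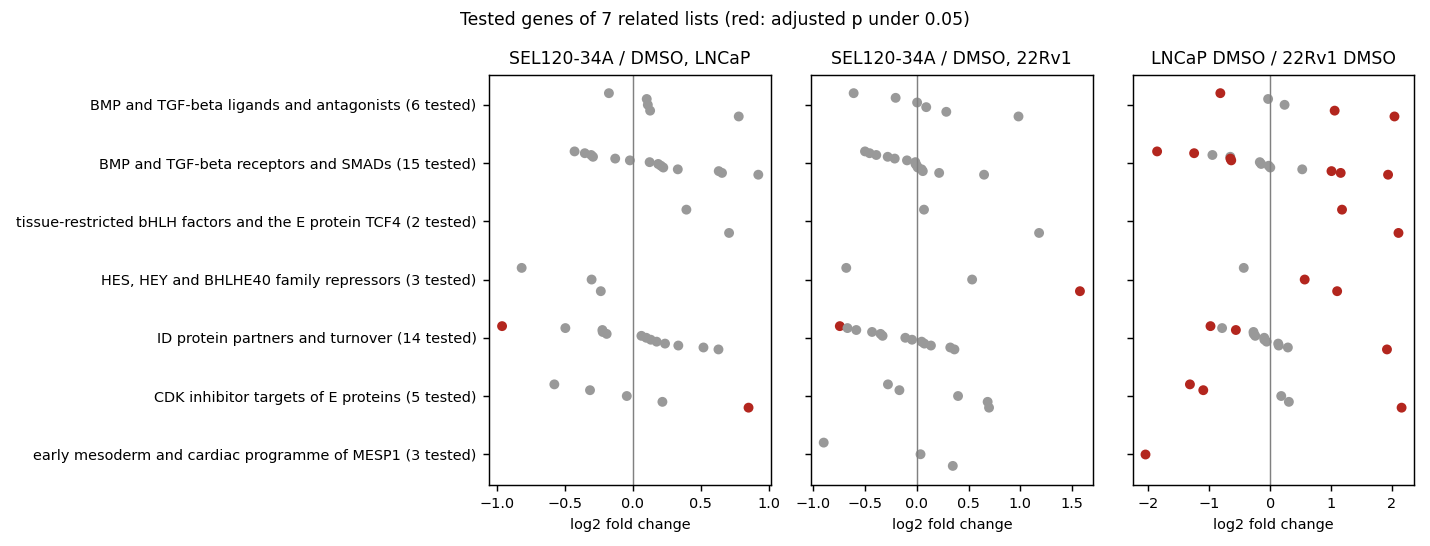
Log2 fold change (x axis) of the tested genes of the 7 lists (rows, with the number tested), for SEL120-34A against DMSO in LNCaP and in 22Rv1 and for LNCaP DMSO against 22Rv1 DMSO; red points passed an adjusted p of 0.05 and grey points did not. Genes with 3 or fewer counts in every library of an arm (6, 2 and 5 genes in the 3 panels) are not drawn; few points are red under treatment and many are red between the lines.

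The members' estimates were set against the alternatives for processing. MESP1 in LNCaP, ID2 in both lines and TCF3 in both lines kept their sign under every alternative run. ID1 and ID3 in LNCaP also kept their sign, with the widest range when DMSO replicates 1 and 3 were left out in turn.

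**Figure D5:**
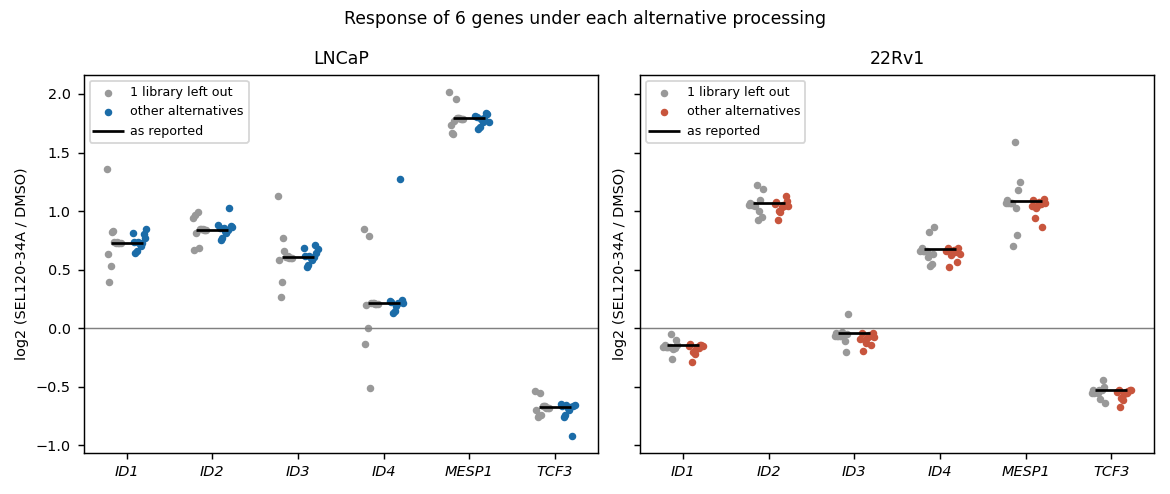
Log2 fold change of SEL120-34A over DMSO (y axis) for the 6 members tested (x axis) in LNCaP and in 22Rv1; black bars are the values given above, grey points leave out 1 library each and coloured points are the other alternatives. ID1 in LNCaP spans 0.40 to 1.36, whereas MESP1 in LNCaP stays between 1.66 and 2.02.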

How the data were processed

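Messenger RNA was measured by BRB-seq, in which samples are barcoded during reverse transcription and the 3′ ends of transcripts are sequenced. Per the labels and methods, the authors aligned reads with STARsolo to GRCh38.p13 and deposited raw counts per gene for 14 libraries. They also deposited log2 CPM values, which edgeR's filter, TMM factors and a prior count of 2 gave back from the counts to within 5e-14 (9638 genes). Whether molecular identifiers were collapsed is not given in the sources used here. The counting intervals and floors take each count as a separate molecule. They cover counting error alone, and only if that holds.

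Counts were tested with edgeR 4.0.16 (R 4.3.3) in 1 model of the 12 LNCaP and 22Rv1 libraries with 4 group means, TMM, the low-count filter (7086 genes) and the quasi-likelihood F-test. This left 8 residual degrees of freedom, with a common BCV (biological coefficient of variation) of 11.1%. P-values were adjusted over all genes tested (Benjamini-Hochberg, threshold 0.05). Levels are CPM with TMM factors over 14 libraries. SE is the log2 fold change over the root of F. Replicates differed by more than counting error (chi-square per degree of freedom 1.62 to 2.01). On simulated counts for the LNCaP comparison, 87.3% of 189 genes changed by 1.5 (log2) were recovered among 6597 genes. Both lines were given the same gene proportions there, and smaller changes were not simulated. All member estimates under treatment except MESP1 in LNCaP were smaller than 1.5.

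The members and lists were chosen with earlier results of these data known. From the lists, called genes averaging 10 counts or more were named, at most 4 per list and comparison. SMAD7, FSTL1, BMPR2, RGMB, CDH2 and DKK1 were named outside this rule. The 3 genes most similar to each member were taken by Pearson correlation, of which 1 is not reported here. Alternatives were a replicate block, DESeq2 1.42.0 size factors and Wald test, scaling by totals, omitting the filter, a minimum of 10 counts per library, separate fits per line, inclusion of PC3, exclusion of mitochondrial genes, thinning to the smallest total count, limma 3.58.1 (limma-trend) with the deposited log2 table, and leaving out single libraries. Promoters came from RefSeq, with windows for 6 of 7 members.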

Additional observations from a re-analysis of the deposited data

Results flagged for a closer look

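The responses of HES6 differed between the lines by a test of the difference itself, at −1.88 on the log2 scale (LNCaP minus 22Rv1; edgeR adjusted p = 0.0265, with a range from 0.00385 to 0.182 over 20 alternatives, 7 of which did not pass). It was higher in 3 of 3 treated 22Rv1 libraries than in all controls.

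For ID1, each of 3 treated LNCaP libraries lay above the mean of its controls and each of 3 treated 22Rv1 libraries below it, and the difference between the responses was 0.88 on the log2 scale. The treated 22Rv1 libraries lay within the range of their controls. Since ID1 was chosen with its response known, no p-value is given, and the difference counts as not tested. Leaving out LNCaP DMSO replicate 3 gave 0.56 and leaving out replicate 1 gave 1.52.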

How the results depend on the processing

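Of the 4 members that differed between the untreated lines, all passed under every alternative that tested them. With at least 10 counts in every library 4 members could be tested and 2 passed. TCF3 between the untreated lines, which did not pass, turned to −0.16 with library totals, −0.00703 with at least 10 counts in every library, −0.084 without LNCaP DMSO replicate 1 and −0.0096 without 22Rv1 DMSO replicate 2; with 1 library left out it ranged from −0.084 to 0.14. Library totals put the median of all genes at −0.14 in the 22Rv1 response and at −0.24 between the lines (0.00251 and −0.0298 with TMM), and the change of TCF3 with them was as large as that shift.

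Counts of listed genes were small and varied. In LNCaP (3) the count was 1 after thinning, 0 with limma-trend and 0 to 5 with 1 library left out (1 without DMSO replicate 3, 0 without SEL120-34A replicate 2, 5 without SEL120-34A replicate 3). In 22Rv1 (2) it was 4 with no filter, 1 with at least 10 counts, 1 with DESeq2 and 1 to 4 with 1 library left out (4 without DMSO replicate 2, 1 without DMSO replicate 3 or SEL120-34A replicate 1). For the difference (1, HES6) it was 0 with at least 10 counts, DESeq2 or limma-trend and 0 to 1 with 1 library left out; it was 0 without LNCaP DMSO replicate 3, LNCaP SEL120-34A replicate 1 or 2, 22Rv1 DMSO replicate 2, or 22Rv1 SEL120-34A replicate 1 or 2. Between the lines (26) it was 40 with no filter, 5 with at least 10 counts and 11 after thinning. The filters and thinning change which genes are tested. DESeq2 gave an adjusted p for 1 of the HES and HEY genes in 22Rv1 and for 1 in the difference, and for HES6 in neither. The cause was not tested for the other settings. SMAD7 in LNCaP was lost in 10 of 19 alternatives (adjusted p 0.0363 to 0.184), CDC20 in 3 of 23 in LNCaP and 4 of 23 in 22Rv1, CDKN1A in LNCaP in 3 of 23 and HES6 in 22Rv1 in 0 of 21. Alternatives that gave no adjusted p for a gene are left out of its number.

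With the replicate number as a block, 240 genes passed in LNCaP (196 without it), 450 in 22Rv1 (404), 68 for the difference (52) and 3507 between the lines (3473); members past the threshold between the lines stayed at 4. Same-numbered libraries correlated at 0.0847, −0.0479 and 0.115 in LNCaP and at 0.0208, −0.0128 and 0.0334 in 22Rv1. Not every library correlated best with its own number. The block gave each number the same effect in both lines, so pairing within a line was not fitted. HES1, described below, had its highest library at the same number in both arms of LNCaP and of 22Rv1. Whether the numbers pair samples within a line was thus not settled, and the samples were taken as unpaired.

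Depth limited ID4 in LNCaP, MESP1 in 22Rv1 DMSO, TCF12 in all arms and most of the listed genes.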

Other observations

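HES1, a Notch target and no member, varied more between replicates than between arms and is described after its values were seen. It was at 90.2, 55.0 and 670 CPM in LNCaP DMSO and at 58.5, 19.0 and 355 CPM in LNCaP SEL120-34A. In 22Rv1 it was at 713, 227 and 255 CPM in DMSO and at 400, 146 and 157 CPM in SEL120-34A. In PC3 it was at 566 CPM in DMSO and 307 CPM in SEL120-34A. The highest library of each arm had the same replicate number within a line, which was 3 in LNCaP and 1 in 22Rv1, and in each of the 7 pairs of libraries with the same line and number HES1 was lower after SEL120-34A. Without pairing, its log2 fold change was −0.82 ± 0.539 in LNCaP (edgeR adjusted p = 0.542) and −0.68 ± 0.514 in 22Rv1 (edgeR adjusted p = 0.520).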
